A study of Mus musculus with 7 samples.

Results

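Oxidative phosphorylation is the process by which mitochondria turn the energy of nutrients into ATP. Its protein-coding genes were taken from the deposited count table by their GRCm38 symbols: those that begin with mt-Nd, mt-Co, mt-Cytb, mt-Atp, Nduf, Uqcr, Atp5 or Cox4 to Cox8, together with Sdha, Sdhb, Sdhc, Sdhd and Cyc1. The rule gave 107 members of the 52550 genes in the table, of which 94 lie in the nuclear genome and 13 on the mitochondrial chromosome. Total RNA, depleted of ribosomal RNA, was sequenced from retinas of 12.5-week-old mice on the C57BL/6J background. There were 4 WT libraries and 3 libraries labelled SCA7_KI_homo, here called SCA7. SCA7 mice carried 2 copies of an Atxn7 allele with an expanded CAG repeat (SCA7 140Q/140Q), at the native locus and so in every cell that expresses Atxn7. Each library held the 2 retinas of 1 mouse, and the sex of each mouse was not given in the labels. Spinocerebellar ataxia type 7, the disease modelled, causes degeneration of the retina as well as of the cerebellum.

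The respiratory chain is built from 4 complexes of the inner mitochondrial membrane. Complex I takes electrons from NADH and complex II takes them from succinate, both pass them to coenzyme Q, complex III hands them on to cytochrome c, and complex IV delivers them to oxygen. Complexes I, III and IV pump protons, and complex V, the ATP synthase, uses the proton gradient to make ATP. Complexes I, III, IV and V combine subunits encoded in the nucleus with subunits encoded by mitochondrial DNA, whereas complex II is wholly nuclear. Photoreceptors have a high demand for ATP and pack mitochondria into their inner segments.

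Few of the nuclear members passed the test for a difference between genotypes. Of the 91 nuclear members tested, 4 were lower and 5 were higher in SCA7 retina at an adjusted p under 0.05 (edgeR quasi-likelihood test, Benjamini-Hochberg over all genes tested), and 82 did not pass the test. By the same test, 31.1% of all protein-coding genes were called, 13.6% lower and 17.5% higher, against 9 of 91 here. The median log2 fold change (SCA7/WT) was 0.03 for nuclear members, against 0.02 for all protein-coding genes tested, and 76 of the 91 lay within 0.2 of 0. The standard error of a nuclear member's log2 fold change had a median of 0.09. Of the 13 mitochondrial members, 12 were tested, 2 were lower (mt-Nd4 and mt-Nd5), none was higher, and their median log2 fold change was -0.14. With a correction for transcript length and GC content, both calls were lost, mt-Nd1 and mt-Atp8 were called higher and the median became 0.058. The number of nuclear calls moved with the libraries and the model. Leaving out any 1 SCA7 library left 2 lower and 2 higher, while the share of all protein-coding genes called fell as well, to between 18.9 and 22.3%. A term for Xist level gave 10 lower and 9 higher, beside 39.6% of protein-coding genes. A block for the replicate number gave 13 lower and 6 higher, beside 38.0%. Without WT replicate 3, 4 nuclear members were lower and 32 higher, beside 37.7% of all protein-coding genes, and the median became 0.12. The plot of changes by complex shows the members reported here.

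**Figure D1:**
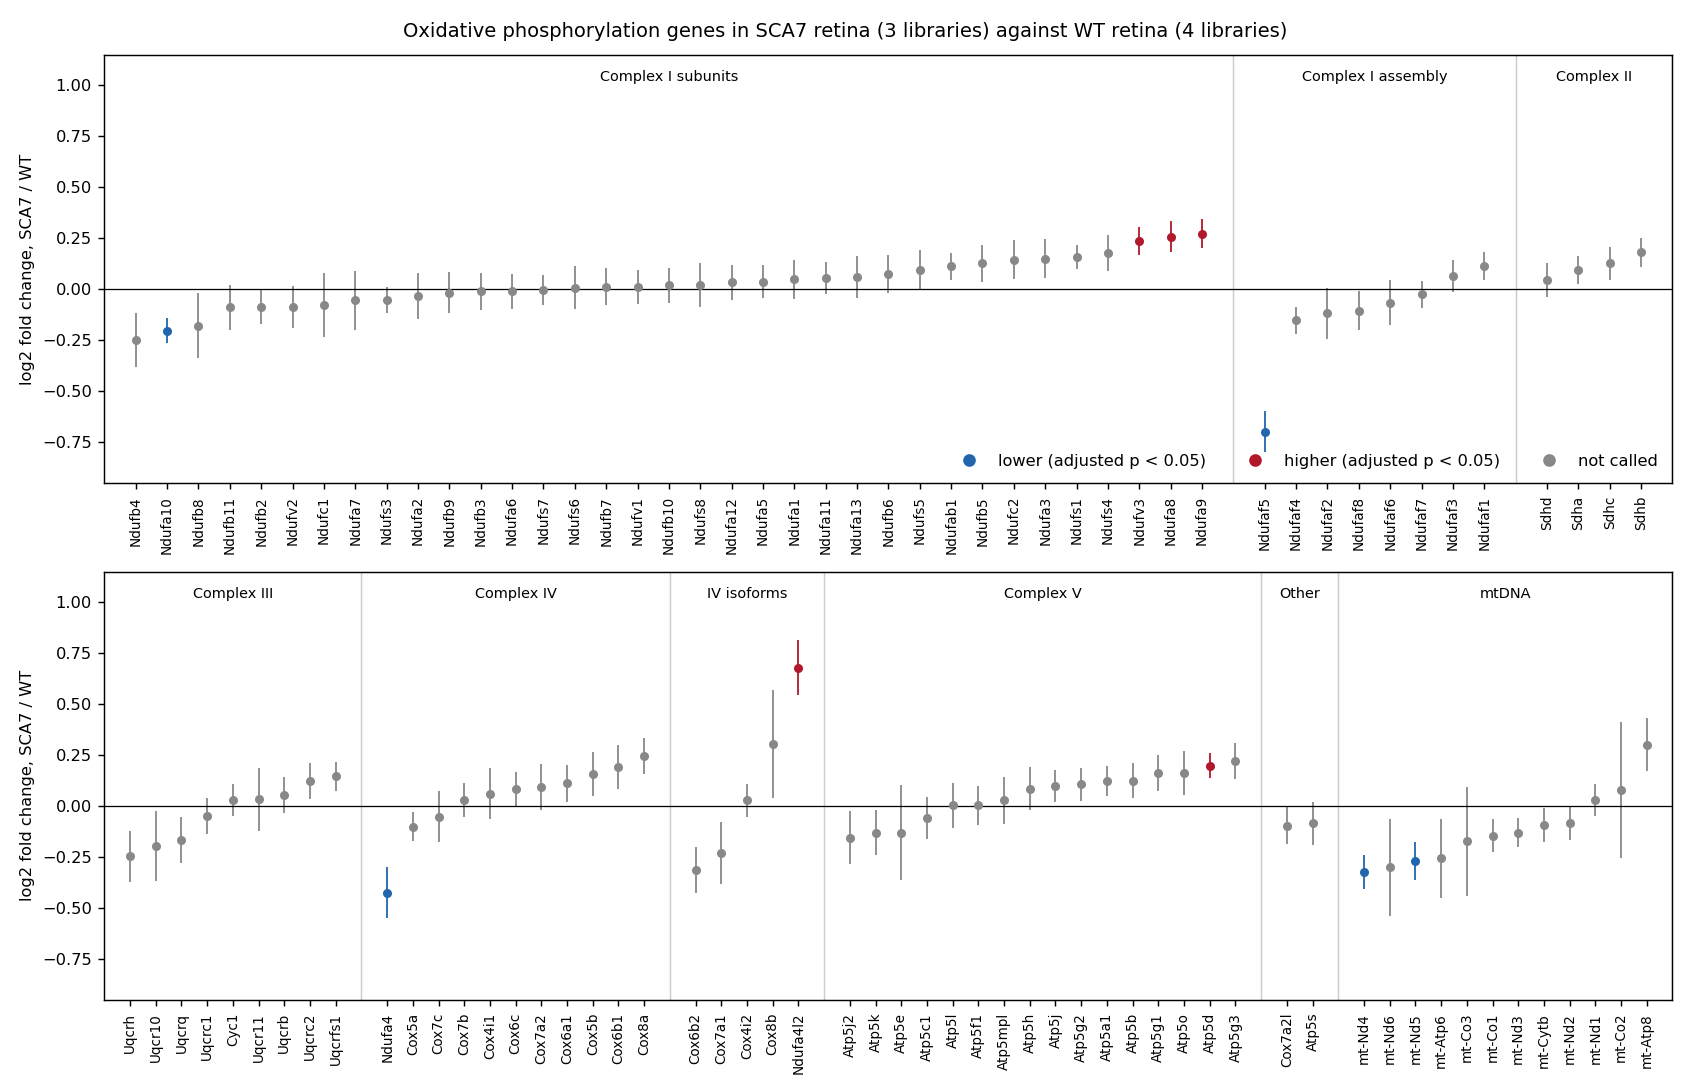
Log2 fold change (SCA7/WT, y axis) of the members tested and reported here, grouped by complex and ordered within it; points are edgeR estimates and bars their standard errors. Blue marks genes called lower and red genes called higher: Ndufaf5 at -0.70 and Ndufa4l2 at 0.68 lie farthest from 0, and most others lie within 0.2 of it.

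Before the genes are described one by one, the libraries need to be set apart. Total counts ranged from 56497675 to 96635832. WT replicate 3 was the highest of the 4 WT libraries for 86 of the 91 nuclear members tested and WT replicate 4 the lowest for 81. The median nuclear member stood 0.23 (log2) above the WT mean in WT replicate 3 and 0.19 below it in WT replicate 4, at -0.19, while the 3 SCA7 libraries lay between -0.01 and 0.06. This order was not particular to respiratory genes. The 80 cytosolic ribosomal protein genes, chosen after the pattern was seen, stood at 0.26 in WT replicate 3 and at -0.24 in WT replicate 4. The 125 other protein-coding genes with under 1 kb of exon gave 0.27 and -0.23, and the 9636 with 1 kb or more gave 0.01 in both. Of the nuclear members, 24 of 94 had under 1 kb of exon, and their median exon length was 1578 bp. A correction for length and GC content is given in the closing section. Antisense genes overlapped over 10% of the exons of 11 nuclear members, and without the counting strand their reads cannot be told apart. None of the 9 nuclear members called was among these 11.

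**Figure D2:**
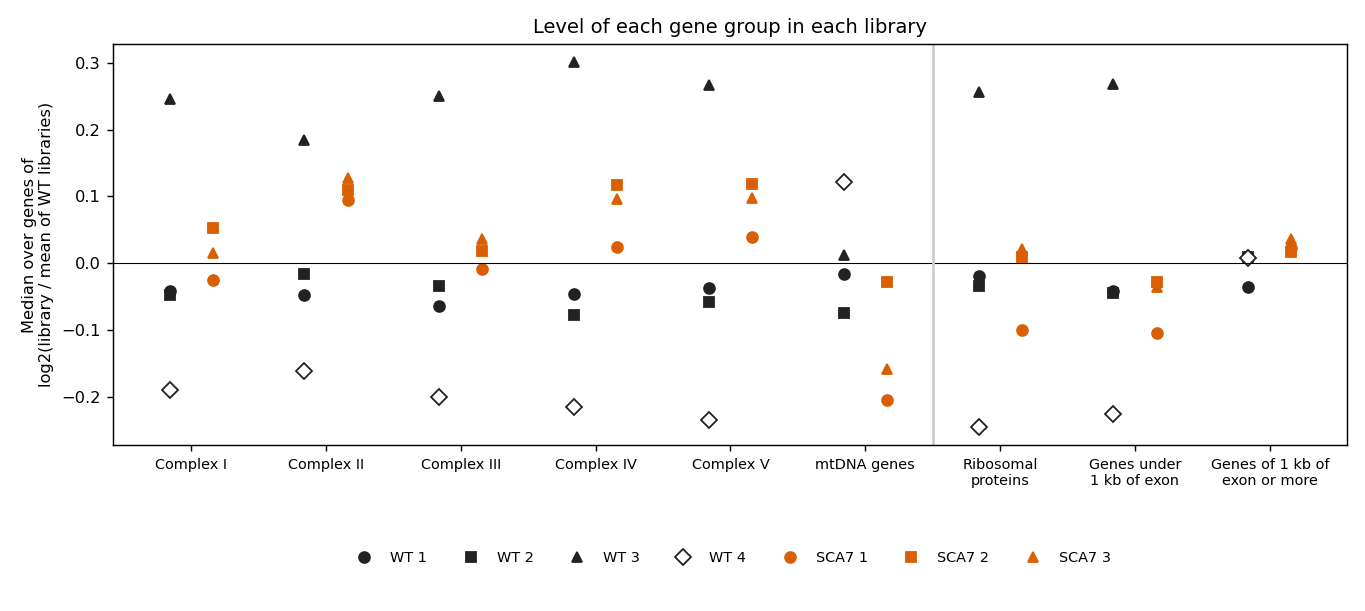
Median over genes of the log2 ratio of each library to the mean of the WT libraries (y axis), for nuclear subunits by complex, mitochondrial genes and 3 comparison groups of genes at 10 CPM or more. Black symbols are WT and orange symbols SCA7 libraries. Within WT, replicate 3 is highest and replicate 4 lowest in every nuclear complex, in ribosomal protein genes and genes under 1 kb of exon. In longer genes, both lie at 0.01.

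Markers of several retinal cell types differed between genotypes. The 10 rod markers were all lower, with a summed level of 64466 to 66340 CPM (TMM-scaled counts per 1e6 counts) in WT retina and 17995 to 23040 CPM in SCA7 retina and a median log2 fold change of -1.12. The 10 cone markers were all lower too, falling from 1509 to 1809 CPM in WT to 274 to 303 CPM in SCA7, and the 9 microglia markers were all higher, from 46.9 to 59.6 CPM in WT to 115 to 129 CPM in SCA7. Bipolar markers, 7 of 10 lower, summed to 907 to 1073 CPM in WT and 804 to 853 CPM in SCA7, and amacrine markers, 4 of 9 lower, to 1081 to 1260 CPM and 953 to 1047 CPM. Endothelium and pericyte markers, 5 of 9 higher and 1 lower, summed to 223 to 250.005 CPM in WT and 260.2 to 280 CPM in SCA7. None of these 3 sums overlapped between groups. Of horizontal cell markers 1 of 5 was lower (91.3 to 105 CPM in WT, 78.6 to 80.5 CPM in SCA7). However, 3 of these 5 had positive log2 fold changes, and their median was 0.11. Of ganglion cell markers 1 of 9 was lower (1037 to 1265 CPM and 969 to 1044 CPM). Of red blood cell markers 1 of 5 was lower (54.5 to 76.7 CPM and 30.5 to 61.7 CPM). Müller glia markers summed to 5232 to 6005 CPM in WT and 5248 to 5516 CPM in SCA7, with 4 of 9 higher and 1 lower. Pigment epithelium markers, with 4 of 7 lower, summed to 109 to 221 CPM in WT and 19.9 to 47.9 CPM in SCA7, and lens markers, none of 7 called, to 61.4 to 792 CPM and 45.7 to 1301 CPM. No marker was at 0 in any library. In bulk retina, fewer cells of a type and less RNA per cell cannot be told apart, and the part of these shifts in the results on respiratory genes was not tested. Atxn7 itself was at 41.1, 38.4, 33.7 and 43.7 CPM in WT replicates 1 to 4 and at 39.9, 38.6 and 34.2 CPM in SCA7 replicates 1 to 3, so the groups overlapped, and a count per gene does not read the repeat.

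Reads of 50 bases from several mitochondrial genes also match nuclear copies, and the counts of these genes have to be read with that in view. Nuclear copies are stretches of mitochondrial DNA that were inserted into chromosomes during evolution. Of the 13 mitochondrial members, 7 shared over 50% of their 50-base windows with another annotated gene, 5 of them over 97%, and 6 shared under 10%. For these 7 genes, the copy with the most shared windows lies on chromosome 1 of GRCm38 and is annotated as a pseudogene. Gm28661 (chr1:24614885-24615565, minus strand) aligned with mt-Co2 over 681 bases with 0 differences, Gm28437 with mt-Co3 over 783 bases with 0 differences, and Gm28439 with 876 bases of mt-Nd4 with 0 differences. To show what a read of the study meets, 50 bases of mt-Co2 and of its copy, and the first 50 bases of mt-Nd3 and of its copy Gm28438, are given 5′ to 3′ on the strand of the gene, with the base that differs in capitals (T3C, counted from the first base of mt-Nd3):
mt-Co2, chrM:7113-7162, plus strand: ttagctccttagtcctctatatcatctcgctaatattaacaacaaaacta
Gm28661, chr1:24615416-24615465, minus strand: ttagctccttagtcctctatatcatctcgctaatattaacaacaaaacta
mt-Nd3, chrM:9459-9508, plus strand: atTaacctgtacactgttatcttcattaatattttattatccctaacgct
Gm28438, chr1:24613070-24613119, minus strand: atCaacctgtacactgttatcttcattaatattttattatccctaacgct
The first pair holds no capital, since the sequences are identical. In the second pair, T3C is the only difference over the 345 bases aligned.

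Mitochondrial genes of 1 complex differed widely in counts. Mt-Co1, mt-Co2 and mt-Co3 encode the 3 core subunits of complex IV. Mt-Co1, with 51.1% of windows shared, gave 1727, 1621, 1776 and 1857 CPM in WT replicates 1 to 4, whereas mt-Co2, with 100% shared, gave 0.12, 0.14, 0.113 and 0.184 CPM, which was 7, 10, 6 and 12 counts. Mt-Co3, with 99.9% shared, lay between 1.13 and 2.24 CPM in WT retina. Mt-Nd4l, with 98.8% shared, did not pass the filter on low counts and lay between 0.028 and 0.154 CPM over the 7 libraries. Mt-Nd3, with 98.0% shared, was higher, at 31.5 to 38.1 CPM in WT retina, so a high share did not always go with few counts. At the other end, mt-Nd1 (subunit 1 of complex I) and mt-Cytb (cytochrome b of complex III), with no shared window, stood between 636 and 743 CPM and between 634 and 753 CPM in WT retina. Other genes without a window shared with an annotated gene were low as well. Mt-Atp8, at 21.7 to 26.2 CPM, is among the shortest, and mt-Nd6, at 4.14 to 7.95 CPM, is the only member on the opposite strand. Unannotated sequence was not compared. The copies of mt-Co2 (chr1:24614885-24615565) and mt-Atp6 (chr1:24613974-24614651) leave a gap that could hold a copy of mt-Atp8, so its share of 0 may be too low. The copies on chromosome 1 were themselves close to 0, with at most 0.0512 CPM for Gm28437 in any library. Levels are therefore not compared between mitochondrial genes here, and each gene is compared only with itself between genotypes. The part of read sharing in the counts was not tested.

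**Figure D3:**
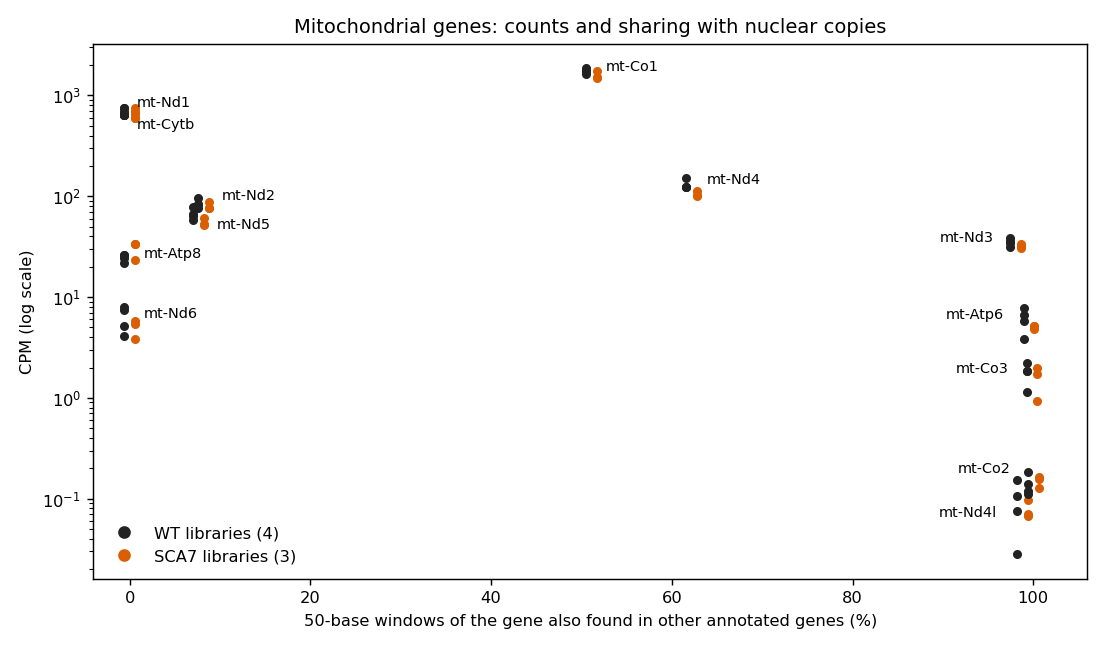
Level of each of the 13 mitochondrial genes in CPM (y axis, log scale) against the percentage of its 50-base windows found in other annotated genes (x axis); each point is a library, black for WT and orange for SCA7. The 5 genes with over 97% of windows shared lie at or under 38.1 CPM, and mt-Co1, mt-Nd1 and mt-Cytb lie at 597 CPM or more.

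Among the mitochondrial subunits of complex I, 2 of the 6 tested were lower in SCA7 retina, beside 13.6% of all protein-coding genes. Mt-Nd4, a proton-pumping subunit, was at 123.8, 124.4, 122.6 and 153 CPM in WT replicates 1 to 4 and at 99.9, 112 and 102 CPM in SCA7 replicates 1 to 3. Every SCA7 library lay below every WT library, and WT replicate 4 stood apart above the other WT libraries. The log2 fold change was -0.32 with a standard error of 0.08 (edgeR adjusted p = 0.0141), and the call was lost without SCA7 replicate 1 (log2 fold change -0.29) or SCA7 replicate 3 (-0.30). Mt-Nd5, a second pumping subunit, was at 65.9, 57.9, 63 and 77.5 CPM in WT and 52.7, 60.1 and 51.7 CPM in SCA7 retina, so that SCA7 replicate 2 lay above WT replicate 2. Its log2 fold change of -0.27 (standard error 0.09, edgeR adjusted p = 0.0499) was at the threshold. Leaving out WT replicate 1, 3 or 4 (-0.27, -0.29 and -0.18) or SCA7 replicate 1 or 3 (-0.24 and -0.23) each ended the call. Mt-Nd4 shared 62.2% of its windows and mt-Nd5 7.61%, so the pair differ in how much sequence is unique to them. Both calls were lost with a correction for transcript length and GC content, which moved mt-Nd4 to -0.06 and mt-Nd5 to -0.04.

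The remaining mitochondrial genes did not pass the test with all libraries. In complex I, the log2 fold change of mt-Nd1 was 0.03 with a standard error of 0.08, mt-Nd2 -0.08 (0.08), mt-Nd3 -0.13 (0.07, called lower with the replicate block at -0.18) and mt-Nd6 -0.30 (0.24). Mt-Cytb of complex III, at 600, 679 and 597 CPM in SCA7 retina, had a log2 fold change of -0.09 with a standard error of 0.08. In complex IV, mt-Co1 lay between 1497 and 1733 CPM in SCA7 retina, overlapping the WT range, at a log2 fold change of -0.14 (standard error 0.08, edgeR adjusted p = 0.209). Mt-Co2 and mt-Co3, with few counts, had standard errors of 0.33 and 0.27, so that a change of the size seen in mt-Nd4 was not detectable at this depth. In complex V, mt-Atp8, a small subunit of the membrane part, was the highest, at 33.8, 33.9 and 23.1 CPM in SCA7 retina, at a log2 fold change of 0.30 (standard error 0.13, edgeR adjusted p = 0.108). Mt-Atp8 was called higher without SCA7 replicate 3, at 0.465, and with the length and GC correction, at 0.715. Mt-Atp6, which forms the proton channel, had a log2 fold change of -0.25 with a standard error of 0.19. It was called lower without WT replicate 4 (-0.42), without both WT replicates 3 and 4 (-0.42) and with the replicate block (-0.41), and lay at -0.10 without WT replicate 1. The 6 genes with under 10% of windows shared with annotated genes, mt-Atp8 among them, had a median of -0.09. The 6 tested with over 50% shared had a median of -0.16.

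Nuclear and mitochondrial members were also compared as sums. Nuclear members took 1.09, 1.09, 1.24 and 1.02% of all counts in WT replicates 1 to 4 and between 1.28 and 1.32% in the 3 SCA7 libraries, so every SCA7 library was above every WT library. Mitochondrial members took 0.324, 0.309, 0.306 and 0.365% in WT and 0.336, 0.379 and 0.325% in SCA7 retina, and the groups overlapped. A share of all counts can rise when other genes fall, and whether it did so here was not tested. The fold changes rest on scaling by trimmed means (TMM). Dividing by library totals in its place would raise every log2 fold change by 0.19, which puts the medians at 0.22 for nuclear members, 0.21 for all protein-coding genes and 0.05 for mitochondrial members. After TMM scaling, WT retina had a summed nuclear level of 11804 ± 1512 CPM (SD, n = 4). SCA7 retina had 12063 ± 307 CPM (SD, n = 3), within the WT range. The ratio of nuclear to mitochondrial counts needs no scaling: it was 3.37, 3.54, 4.06 and 2.79 in WT and 3.80, 3.49 and 4.003 in SCA7 retina. On the log2 scale the SCA7 mean exceeded the WT mean by 0.14, less than the spread among WT libraries (SD 0.23, n = 4), with WT replicates 3 and 4 at both ends. The difference was 0.08 without Atp5b and mt-Co1, the members with the most counts. It was 0.0749 against the mitochondrial members with under 10% of windows shared with annotated genes. The mitochondrial ribosomal RNAs, which the library preparation depletes, took 2.14 to 2.21% of counts in WT and 1.99 to 2.23% in SCA7 retina. On the TMM scale they were at 22025 to 24736 CPM in WT and at 18314 to 20589 CPM in SCA7 retina, without overlap.

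Many nuclear members stood among the most abundant mRNAs of WT retina. Levels per length are in RPK: counts scaled with DESeq2 size factors, per kilobase of the gene's median transcript. Of the 91 nuclear members tested, 59 were in the top 10% of protein-coding genes by WT RPK and 87 were above their median. The highest was Atp5b, the catalytic beta subunit of the ATP synthase, at 137319 ± 14543 RPK in WT (SD, n = 4) and 151229 ± 4676 RPK in SCA7 retina (SD, n = 3). It was followed by its partner Atp5a1, the alpha subunit, at 73408 ± 5322 RPK in WT. Then came Cox4i1 at 47556 ± 9205 RPK, Ndufa4 at 47358 ± 9267 RPK and Sdha at 40594 ± 2777 RPK, whose ranges of error overlap. By complex, the median WT level was 19287 RPK for the nuclear subunits of complex IV, 17493 for complex V, 13050 for complex III, 8390 for complex I and 6060 for complex II. Complex I assembly factors, which help to build the complex and are not part of it, had a median of 1635 RPK. Values and order depend on the length used. With the union of exons, the highest nuclear member was a complex IV subunit at 25398 RPK, above the highest of complex V at 24890.5 RPK. The highest of complex II was then at 5126 RPK. The medians were then 11650 for complex IV, 5374 for III, 5061 for V, 3739 for I and 3135 for II, so complexes III and V exchanged places.

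**Figure D4:**
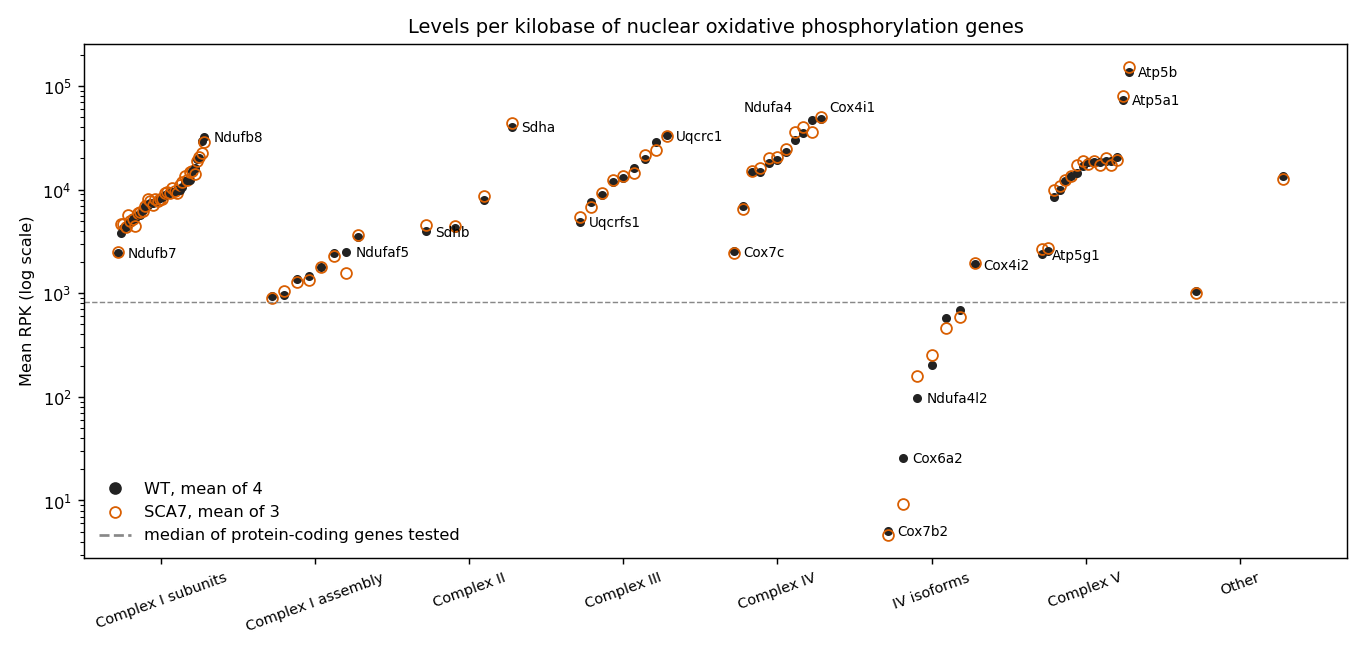
Mean RPK (y axis, log scale) of the nuclear members in WT retina (black points, mean of 4 libraries) and SCA7 retina (orange circles, mean of 3), by complex and in rising order of the WT level; Cox8c, without counts, is not drawn. Black and orange marks nearly coincide for most genes, with Atp5b highest at 137319 RPK in WT and most complex IV isoforms under the dashed median of protein-coding genes.

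Complex I is the largest of the complexes, and 5 of its 36 nuclear subunits were called, 2 lower and 3 higher. That is 13.9%, beside 31.1% of all protein-coding genes. The median log2 fold change was 0.02. The 7 core subunits, which carry the flavin and the iron-sulfur clusters, had a median of -0.00. Of these, Ndufs1, the largest iron-sulfur subunit, was at 135 to 152 CPM in WT and 159 to 161 CPM in SCA7 retina. The groups did not overlap, and its log2 fold change of 0.16 had an adjusted p of 0.0595 by edgeR. Ndufv1, which binds NADH, had a log2 fold change of 0.01 with a standard error of 0.08.

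Among the 29 accessory subunits of complex I, which stabilise the core, 1 was lower and 3 were higher. Together these were 13.8%, beside 31.1% of all protein-coding genes. Ndufa10 was lower, at 156, 162, 172 and 154 CPM in WT and 137, 141 and 142 CPM in SCA7 retina, with no overlap and a log2 fold change of -0.20 (standard error 0.06, edgeR adjusted p = 0.0255). Ndufa9 was higher, at 80.4, 83.2, 93.6 and 76.2 CPM in WT and 99.6, 100.5 and 102 CPM in SCA7 retina. Its log2 fold change was 0.27 (standard error 0.07, edgeR adjusted p = 0.0122), and the call was lost only without SCA7 replicate 3 (adjusted p = 0.0519, log2 fold change 0.26). Ndufa8 was higher at 0.26 (standard error 0.08, edgeR adjusted p = 0.0256), from 42.4 to 54.6 CPM in WT to 56.3 to 58.3 CPM in SCA7 retina. Ndufv3, an accessory subunit beside the NADH-binding part, was higher at 0.24 (standard error 0.07, edgeR adjusted p = 0.0248), from 113 to 137 CPM to 141 to 147 CPM. All 4 changes were under 1.3-fold in size. The Ndufa8 and Ndufv3 calls were each lost without WT replicate 1, WT replicate 2 or any 1 SCA7 library, where their log2 fold changes were 0.24 to 0.27 and 0.22 to 0.25. The Ndufa10 call was lost without WT replicate 2 or any 1 SCA7 library (-0.21 to -0.18), with the length and GC correction (-0.18) and with no filter beyond 1 count (-0.18).

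The change of greatest size among nuclear members was in an assembly factor of complex I. Ndufaf5 (chr2:140170649-140203689), an enzyme that modifies a core subunit during assembly, was at 43, 40.9, 49.5 and 35.5 CPM in WT and at 23.7, 26.7 and 27.7 CPM in SCA7 retina. All SCA7 libraries were below all WT libraries. Its log2 fold change was -0.70 with a standard error of 0.10 (edgeR adjusted p = 0.000397), a fold change of 0.617, and it remained called without any 1 library (-0.77 to -0.61). It was the 1 nuclear member that passed a fold change under 0.7 as well, against 6.13% of protein-coding genes. The other 7 complex I assembly factors of the rule did not pass the test, and the median over all 8 was -0.08. Ndufaf4 was called without WT replicate 4, without both WT replicates 3 and 4, with the Xist term and with the replicate block.

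Complexes II and III had no nuclear subunit called. All 4 subunits of complex II, which is also the succinate dehydrogenase of the tricarboxylic acid cycle, had positive log2 fold changes, with a median of 0.11. Sdha, the flavoprotein, was at 284, 304, 303 and 335 CPM in WT and 325, 327 and 329 CPM in SCA7 retina, a log2 fold change of 0.09 (standard error 0.07). The 4 subunits summed to 513 to 572 CPM in WT and 576 to 585 CPM in SCA7 retina, without overlap. WT replicate 4, lowest for most nuclear members, was the highest library for Sdha. Sdhb, the iron-sulfur subunit, was at 57.5 to 72.1 CPM in WT and 72.6 to 76.5 CPM in SCA7 retina, without overlap, at a log2 fold change of 0.18 (standard error 0.07, edgeR adjusted p = 0.0817). In complex III, 9 nuclear subunits had log2 fold changes from -0.25 to 0.15 and a median of 0.03. Uqcrc1, a large structural subunit, gave -0.05 (standard error 0.09), Cyc1, the cytochrome c1, 0.03 (0.08) and Uqcrfs1, the Rieske iron-sulfur protein, 0.15 (0.07). Without WT replicate 3, Uqcrfs1 (0.21), Sdhb (0.23) and Ndufs1 (0.19) were called higher, as were Sdhc, Uqcr11 and Uqcrc2, whereas Sdha, Cyc1 and Uqcrc1 were not called. Uqcrh was called without WT replicate 4, with the Xist term and with the replicate block, and the block also called Uqcr10 and Uqcrq.

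In complex IV, cytochrome c oxidase, 1 of 11 nuclear subunits was called, 9.09%, beside 31.1% of all protein-coding genes. Ndufa4 (chr6:11900292-11907497), first described with complex I and now placed in complex IV, was at 310, 284, 414 and 277 CPM in WT and at 233, 247 and 238 CPM in SCA7 retina. The SCA7 libraries lay close together and below all WT libraries, and WT replicate 3 stood far above the rest. The log2 fold change was -0.42 with a standard error of 0.12 (edgeR adjusted p = 0.028). Without WT replicate 3 it was -0.28 (adjusted p = 0.00239), and the call was lost without WT replicate 1 (-0.44) or any 1 SCA7 library (-0.45 to -0.40), and with no filter beyond 1 count (-0.40). The 10 other nuclear subunits had a different sign in most cases, with 8 of the 11 positive and a median of 0.08. Cox4i1, a regulatory subunit, was at 403, 394, 535 and 343 CPM in WT and 425, 441 and 446 CPM in SCA7 retina (log2 fold change 0.06, standard error 0.12), and was called higher without WT replicate 3 (0.20). Cox5a gave -0.10 (0.07). Cox8a gave 0.25 (0.09) with an edgeR adjusted p of 0.0511, and passed in 9 of 18 alternative settings.

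Several subunits of complex IV come in tissue isoforms, and in each set 1 isoform made up most of the RPK in both genotypes. Cox4i2, the lung and hypoxia form, was 3.92% ± 0.51 (SD, n = 4) of Cox4i1 and Cox4i2 together in WT and 3.77% ± 0.21 (SD, n = 3) in SCA7 retina. Cox6b2, the testis form, was 1.63% ± 0.24 of its pair in WT and 1.13% ± 0.05 in SCA7 retina, without overlap. Its own log2 fold change was -0.31 with a standard error of 0.11 (edgeR adjusted p = 0.056), and it was called lower without WT replicate 1 (-0.35), with at least 10 counts in every library (-0.32) and with the Xist term (-0.33). Cox7a1, the heart and muscle form, was 1.84% ± 0.15 in WT and 1.54% ± 0.07 in SCA7 retina of the sum with Cox7a2 and Cox7a2l. In that set Cox7a2 was 61.8% ± 1.39 in WT and 65.1% ± 1.11 in SCA7 retina, and Cox7a2l 36.4% ± 1.48 and 33.4% ± 1.05. None of these shares overlapped between groups. Cox8b was 0.679% ± 0.113 and 0.708% ± 0.291 beside Cox8a. Without SCA7 replicate 3, Cox8b was called higher, at a log2 fold change of 0.62 in place of 0.31. Of the major isoforms, Cox6a1 (0.21), Cox6b1 (0.32) and Cox7a2 (0.22) were called higher without WT replicate 3, and none with all libraries. Cox6a2, Cox7b2 and Cox8c did not pass the filter on low counts, with at most 0.506 CPM for Cox6a2 and no count for Cox8c. Cox6a1 and Cox7b were at 112 to 152 and 99.5 to 132 CPM in WT. Cox6a2, at 0.140 to 0.506 CPM in WT and 0.0813 to 0.0972 CPM in SCA7 retina, was called lower with no filter beyond 1 count. Ndufa4l2 (chr10:127514967-127517154), a paralogue of Ndufa4 that is induced by hypoxia in other cells, was higher. It was at 1.37, 1.17, 1.33 and 1.45 CPM in WT and at 2.19, 2.26 and 1.94 CPM in SCA7 retina, with no overlap. The log2 fold change was 0.68 with a standard error of 0.14 (edgeR adjusted p = 0.00297), a fold change of 1.60, and it held without any 1 library (0.62 to 0.74). The part of the higher endothelium and pericyte markers in this result was not tested. Its share of RPK beside Ndufa4 was 0.213% ± 0.042 in WT and 0.444% ± 0.033 in SCA7 retina, so the pair moved in opposite directions while Ndufa4 stayed over 99% of the sum. It was the 1 nuclear member past a fold change of 1.3, against 8.81% of protein-coding genes.

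Complex V, the ATP synthase, had 1 of 16 nuclear subunits called, 6.25%, beside 31.1% of all protein-coding genes. Its median log2 fold change was 0.09. Atp5d, the delta subunit of the central stalk, was at 109, 110, 119 and 104 CPM in WT and at 126, 127 and 128 CPM in SCA7 retina, above every WT library. The log2 fold change was 0.20 with a standard error of 0.06 (edgeR adjusted p = 0.0274). The call was lost without WT replicate 1 or 2 (0.19 and 0.20) or any 1 SCA7 library (0.20 to 0.21). Atp5b, at 1422 to 1769 CPM in WT and 1618 to 1715 CPM in SCA7 retina, gave 0.13 (standard error 0.09), and Atp5a1, at 816 to 957 CPM in WT and 925 to 968 CPM in SCA7 retina, gave 0.12 (0.07). Without WT replicate 3 both were called higher, at 0.20 for Atp5b and 0.17 for Atp5a1. Atp5e, the epsilon subunit, varied widely among WT libraries, at 126, 115, 179 and 85.5 CPM. Relative to Atp5c1, the gamma subunit, the RPK of Atp5b was 7.57 ± 0.58 (SD, n = 4) in WT and 8.53 ± 0.05 (SD, n = 3) in SCA7 retina, and that of Atp5d 0.469 ± 0.046 and 0.554 ± 0.015. That of Atp5a1 was 4.06 ± 0.41 and 4.55 ± 0.06, and that of Atp5e went the other way, 1.12 ± 0.17 and 1.08 ± 0.02. These transcript ratios were not tested. The membrane ring is made of 1 protein, subunit c, from 3 genes that differ in their targeting sequence. Atp5g3 supplied 74.7% ± 1.02 of their RPK in WT and 75.9% ± 0.38 in SCA7 retina, and Atp5g1 12.2% ± 0.17 and 11.9% ± 0.16. The value of Atp5g2 is uncertain, since 36.7% of its windows occur in other annotated genes. Atp5g1, Atp5g2 and Atp5g3 had log2 fold changes of 0.16, 0.11 and 0.22, with edgeR adjusted p-values from 0.0858 to 0.353. All 3 were called higher without WT replicate 3 (0.25, 0.18 and 0.31), and Atp5g3 in 5 of 18 alternative settings.

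Regulators of respiratory genes were read next. Of 10 regulators listed, 4 were lower and 1 was higher, beside 13.6% lower and 17.5% higher among all protein-coding genes. Esrrb, a nuclear receptor known to act on energy metabolism in rods, was at 215, 194, 196 and 304 CPM in WT and at 130, 76 and 93.5 CPM in SCA7 retina (log2 fold change -1.19, standard error 0.24, edgeR adjusted p = 0.0133). Gabpb1, a subunit of the GABP factor, gave -0.40 (0.07) and Nrf1, nuclear respiratory factor 1, -0.29 (0.06). Both were below WT in every SCA7 library and were named after their values were seen. Ppargc1a, a coactivator of mitochondrial genes, was at 37.8 to 41.9 CPM in WT and at 31.1, 31.1 and 38.9 CPM in SCA7 retina, overlapping, with a log2 fold change of -0.25 (0.08, edgeR adjusted p = 0.0433). That call was lost without WT replicate 1, 2 or 3 (-0.25, -0.22 and -0.24) or SCA7 replicate 1 or 2 (-0.19 each). Further settings ended it too, and it passed in 10 of 18 alternatives. Yy1 was higher at 0.22 (0.07), a call lost without WT replicate 1 or 2 (0.20 and 0.21) or any 1 SCA7 library (0.20 to 0.25). Esrrb was lost without both WT replicates 3 and 4 (-1.03), an alternative added after the data were seen.

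The promoters of the nuclear members were searched for the sites of these and related factors. RefSeq promoters (GRCm38.p6, 250 bases before to 50 after the start) were matched for 73 of the 91 nuclear members tested and for 11982 protein-coding genes tested. The NRF-1 site (GCGCA, any base, GCGC), searched like the others on both strands, was in 19 of the 73 (26.0%), against 10.1% of the protein-coding genes and 4.603% of all promoters in the table. The ETS site CCGGAAG, which GABP binds, was in 24.7%, against 17.5% of protein-coding genes and 8.86% of all promoters. The YY1 site AAGATGGC was in 13.7%, against 4.56% and 2.75%, and the photoreceptor site TAATCC of CRX in 8.22%, against 7.36% and 7.06%. CCGGAAG ends and AAGATGGC begins with AAG, so their matches can overlap. The 19 members with an NRF-1 match had a median log2 fold change of 0.05 and those without a match 0.02. With and without a match, the medians were 0.04 and 0.02 for ETS, 0.002 and 0.03 for YY1, and 0.02 and 0.03 for CRX. A match is a description of letters and does not show binding. For 1 subunit each of complexes I, II, IV and V, the stretch around the match is given 5′ to 3′ on the strand of the gene, with the match in capitals:
Ndufa8, chr2:36049339-36049398, minus strand: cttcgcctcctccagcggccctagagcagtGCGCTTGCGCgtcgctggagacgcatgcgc
Sdha, chr13:74350299-74350368, minus strand: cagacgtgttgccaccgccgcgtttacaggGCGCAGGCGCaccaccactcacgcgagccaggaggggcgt
Cox6a1, chr5:115349081-115349150, minus strand: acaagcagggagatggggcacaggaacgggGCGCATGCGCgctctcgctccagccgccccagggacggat
Atp5c1, chr2:10080433-10080479, minus strand: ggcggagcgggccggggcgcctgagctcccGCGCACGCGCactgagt
Ndufa8 was higher in SCA7 retina, and Sdha, Cox6a1 and Atp5c1 were not called, with log2 fold changes of 0.09, 0.11 and -0.06.

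Lists of genes that serve the respiratory chain without being part of the rule were read beside it. Of 18 tricarboxylic acid cycle genes, which feed NADH and succinate to the chain, 6 were higher and none lower, with a median log2 fold change of 0.16. Among all protein-coding genes, 17.5% were higher and 13.6% lower. Ogdh, a subunit of the oxoglutarate dehydrogenase, was at 221, 237, 236 and 231 CPM in WT and 290, 292 and 298 CPM in SCA7 retina (log2 fold change 0.35, standard error 0.06, edgeR adjusted p = 0.000897). Dlat of the pyruvate dehydrogenase, named after its value was seen, gave 0.33 (0.05). Of 37 further assembly factors, 4 were lower and 2 higher, 16.2% together. Uqcc3, an assembly factor of complex III, fell from 63.1, 65.1, 72 and 58.3 CPM in WT to 32.3, 34.1 and 35.2 CPM in SCA7 retina (-0.93, standard error 0.07, edgeR adjusted p = 3.08e-06), while Coa5 rose by 0.23 (0.05), a call lost without SCA7 replicate 2 (0.21, edgeR adjusted p = 0.0501). Of 26 genes of mitochondrial DNA expression, 5 were lower and 1 higher, 23.1% together. Polg2, the accessory subunit of the mitochondrial DNA polymerase, fell from 68.4, 64.5, 69.5 and 52 CPM in WT to 21.4, 24.7 and 25.2 CPM in SCA7 retina (-1.42, standard error 0.10, edgeR adjusted p = 2.11e-06), and Mtpap, the poly(A) polymerase of mitochondria, rose by 0.20 (0.06), a call lost without WT replicate 1 (0.19) or SCA7 replicate 1 or 2 (0.20 and 0.18). Tfam, which packages mitochondrial DNA, was at 27.1 to 33.2 CPM in WT and 30.9 to 32.3 CPM in SCA7 retina and did not pass the test (0.10, standard error 0.07), but was called higher without WT replicate 3 (0.16).

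Carriers and coenzyme Q genes had 28.6% and 30.8% called, near the 31.1% of all protein-coding genes. Of genes for mitochondrial mass and import, 12.5% were called. These shares were not tested against the background. Of 7 genes for cytochrome c and carriers, Slc25a3, the phosphate carrier, was higher at 0.21 (0.06) and Slc25a5, an ADP/ATP carrier, lower at -0.24 (0.08), whereas the heart and brain form Slc25a4 (0.13, standard error 0.08) and cytochrome c itself, Cycs (0.02, 0.06), did not pass. The Slc25a3 call was lost without WT replicate 1 or 2 (0.18 and 0.21) or any 1 SCA7 library (0.19 to 0.23). The Slc25a5 call was lost without WT replicate 2 (-0.23) or any 1 SCA7 library (-0.26 to -0.19) and with the length and GC correction (-0.20), and Slc25a4 was called higher without WT replicate 3 (0.20). Of 13 genes of coenzyme Q synthesis, 2 were lower and 2 higher, with Pdss1 at -0.43 (0.09) and Coq4 at 0.34 (0.10) the farthest from 0 in each direction. The Coq4 call was lost without WT replicate 1 or 2 (0.27 and 0.33) or SCA7 replicate 2 or 3 (0.32 and 0.30), and Pdss1 remained called without any 1 library. Of 16 genes for mitochondrial mass and import, Timm44, part of the import motor, was lower at -0.50 (0.06) and Opa1, which shapes the inner membrane, higher at 0.21 (0.06), with a median of 0.03. The Opa1 call was lost without any 1 SCA7 library (0.20 to 0.21). The plot of lists shows nuclear members within the interquartile range of all protein-coding genes for the most part, and rod, cone and microglia markers outside it.

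**Figure D5:**
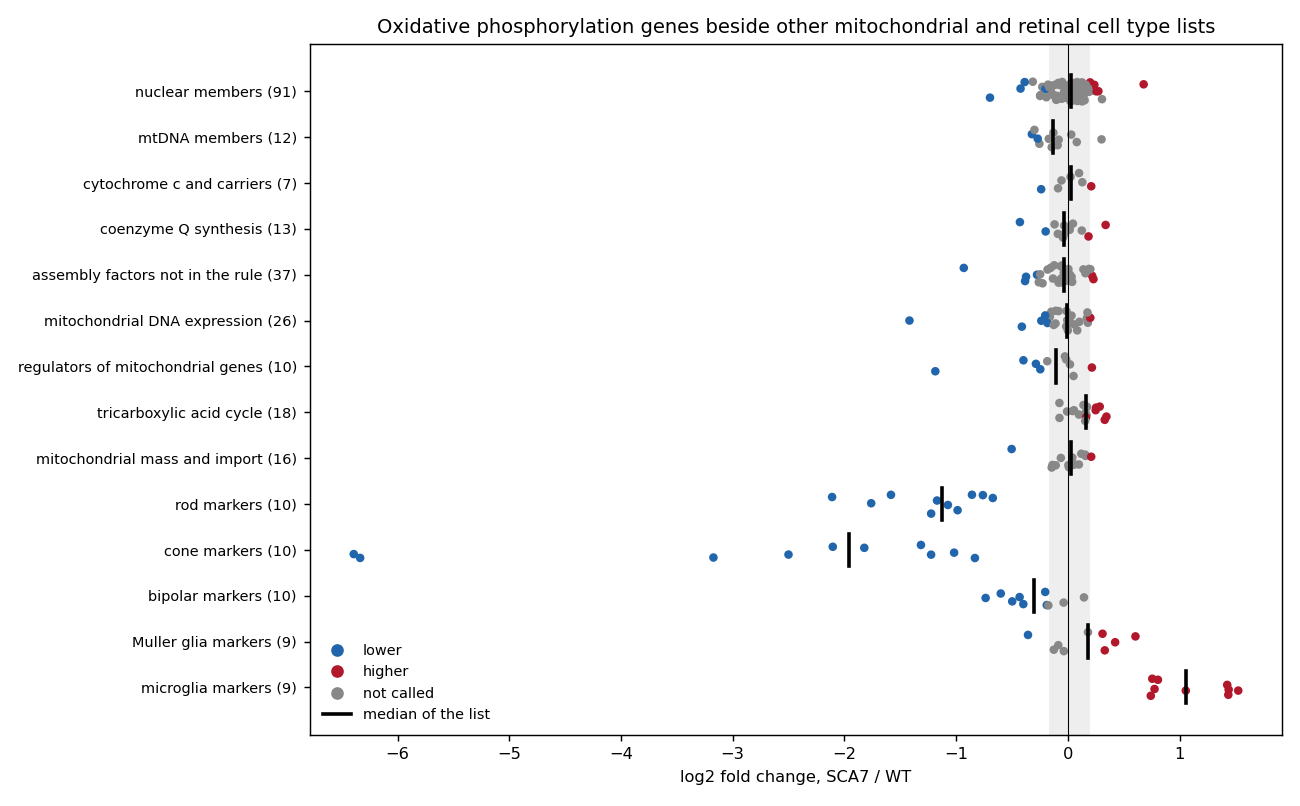
Log2 fold change (SCA7/WT, x axis) of each tested gene in the lists named on the y axis, with the number tested in brackets; blue marks genes called lower and red genes called higher, black bars the median of each list and the grey band the interquartile range of all protein-coding genes tested. Medians are 0.03 for nuclear members, -0.14 for mitochondrial members, 0.16 for the tricarboxylic acid cycle, -1.12 for rod markers and 1.06 for microglia markers.

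The groups were also compared by overlap alone. Among the 91 nuclear members tested, 5 lay below WT and 7 above WT in every SCA7 library, 13.2% together, against 40.7% of all protein-coding genes tested, 17.0% below and 23.7% above. Among the 12 mitochondrial members, 1 did, mt-Nd4. A low share where WT libraries spread widely does not show that the levels were equal.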

How the data were processed

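Total RNA was depleted of cytoplasmic and mitochondrial ribosomal RNA and sequenced as single reads of 50 bases with a stranded kit. Per the submitters' notes and the study's methods, the authors aligned reads to mm10 with TopHat2 2.0.14 and Bowtie2 2.1.0 and counted genes of Ensembl release 90 with HTSeq 0.6.1. The deposited values are raw counts per gene. The HTSeq strand and overlap options are not given in the sources used here. Symbols, lengths and coordinates came from GENCODE M21 (GRCm38) and promoters from RefSeq.

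Genes passing filterByExpr were tested with edgeR 4.0.16 (TMM, robust quasi-likelihood, Benjamini-Hochberg over 20128 genes), SCA7 against WT. CPM is TMM-scaled. "Lower" and "higher" mean an adjusted p under 0.05. The study's fold change limits of 0.7 and 1.3 are given as a stricter call. Standard errors were taken from the F statistic. The test was first run on simulated counts. Alternatives used DESeq2 1.42.0, limma 3.58.1 and other filters, scalings and subsets. Windows were compared with annotated transcripts of other genes, either strand, not with the whole genome.

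The members and lists were chosen with earlier results of these data known. The genes named were all mitochondrial members, nuclear members past the fold change limits, the 2 lowest and 2 highest called per complex, isoform sets, catalytic or core subunits, and the extremes called in each further list; Ndufv3, Atp5c1, Atp5e, Nrf1, Gabpb1 and Dlat were added after their values were seen. Each library is a separate mouse by the methods. The values of 1 complex I subunit are not reported here, though it stays in the counts and medians.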

Additional observations from a re-analysis of the deposited data

Results flagged for a closer look

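WT replicate 4 lay apart from the other 3 WT libraries in 2 mitochondrial genes, of 70 values examined in this way; chance alone is expected to single out about 1 in 20 groups of 4. It had 153 CPM of mt-Nd4, where the other WT libraries had 122.6 to 124.4 CPM, and 753 CPM of mt-Cytb, where the others had 634 to 642 CPM. The same library was the lowest WT library for 81 of 91 nuclear members. Without it, the log2 fold change of mt-Nd4 was -0.24, still called lower (edgeR adjusted p = 0.0116), and that of mt-Cytb was -0.03.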

How the results depend on the processing

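All alternatives are relative to 4 nuclear members lower, 5 higher, 2 mitochondrial members lower and none higher. Leaving out 1 library gave 2 to 7 nuclear members lower and 2 to 32 higher, and 0 to 2 mitochondrial members lower and 0 to 1 higher, beside 18.9 to 37.7% of protein-coding genes called. WT replicate 3 set the upper end, 32 higher, and WT replicate 4 the 7 lower. Without both, chosen after seeing the data, 7 were lower and 29 higher, beside 37.9% of protein-coding genes. With Xist as a covariate for sex, 10 were lower and 9 higher, beside 39.6% of protein-coding genes. With no filter beyond 1 count, 3 were lower, without Ndufa4 and Ndufa10 and with Cox6a2, and 8 higher, beside 25.4%. The length and GC correction gave 3 lower, without Ndufa10, and 10 higher, 0 mitochondrial members lower, 2 higher (mt-Nd1 and mt-Atp8) and a mitochondrial median of 0.058, beside 32.4% of protein-coding genes; the cause was not tested. The fold change limits left 1 nuclear member lower, 1 higher and 0 mitochondrial members lower, and an adjusted p under 0.01 left 2, 1 and 0. With limma-voom 1 mitochondrial member was lower. DESeq2's Wald test gave 4 nuclear members lower and 7 higher, beside 32.0%.

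The replicate block gave 13 nuclear members lower, 6 higher and 4 mitochondrial members lower, beside 38.0% of protein-coding genes. Deviations of same-numbered libraries correlated at 0.00672, 0.306 and 0.126, and those of differently numbered libraries at -0.315 to 0.186. So few values cannot settle whether the numbers mark pairs. The replicate numbers were not taken as pairs in the main test. The sample titles also carry numbers that lie close together for the WT and SCA7 libraries of each replicate number they share, and no label says what these mark, so shared litters cannot be told from separate ones.

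The median log2 fold change of nuclear members lay between -0.03 and 0.12 in the refitted alternatives and was 0.22 on library totals. With the union of exons as length, the median WT level of nuclear members was 3586 RPK in place of 8894. The few counts of mt-Co2, mt-Co3 and mt-Nd4l limit what they can show.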
